A study of Homo sapiens with 6 samples.

Results

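Messenger RNA of the genes that make purine and pyrimidine nucleotides was examined in 2 derivatives of the CWR-R1 cell line by RNA sequencing. The genes were chosen by name: 37 enzymes of de novo synthesis, salvage, phosphate transfer and deoxynucleotide supply were listed, and 36 of them had a row among the 16949 genes of the table analysed here. NT5E was not analysed here. CWR-R1 is an established human prostate cancer line, labelled castration-resistant, meaning that it grows with little androgen. The SOX2-KO group held 3 libraries of a derivative labelled as a SOX2 knockout and SOX2 negative, and the Control group held 3 libraries of the untreated, SOX2-positive derivative. SOX2 is a transcription factor of stem and progenitor cells. The sources used here do not give how the knockout was made, whether it was 1 clone, or the culture conditions. The labels do not say whether the libraries of a group were grown apart, so p-values reflect library-to-library spread that may be purely technical.

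Purine nucleotides are assembled step by step on an activated ribose, phosphoribosyl pyrophosphate (PRPP), to give inosine monophosphate (IMP), from which adenine and guanine nucleotides branch. The pyrimidine ring is instead closed first and joined to PRPP afterwards, to give uridine monophosphate (UMP) and, from UTP, CTP. Cells also recover free bases and nucleosides by salvage. Ribonucleotide reductase turns ribonucleoside diphosphates into the deoxynucleotides that DNA replication consumes, so the supply is matched to S phase in dividing cells.

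The values were CPM, the reads of a gene per 1000000 reads that its library had over the 16949 genes. Of these, 15927 genes that averaged 1 CPM or more were tested. Library depth, counted over the same 16949 genes, was estimated at 20717788 to 25739759 reads. A gene was called when its Benjamini-Hochberg adjusted p from limma, over all genes tested, was under 0.05. Group means are given ± SD over the 3 libraries, folds are ratios of group mean CPM, and log2 changes are SOX2-KO minus Control on the log2(CPM + 1) scale with their standard error. SOX2 itself had 4.70, 4.56 and 3.83 CPM in the SOX2-KO libraries, against 55.7, 54.3 and 55.5 CPM in the Control libraries, which left 7.91% of the Control mean (log2 change -3.39 ± 0.08, adjusted p = 1.65e-08). Of 8 markers of prostate luminal cancer cells, 5 were called higher and 1 lower, beside 25.0% higher and 32.9% lower over all genes, and their summed level was 2735 to 2948 CPM in SOX2-KO and 2109.6 to 2146 CPM in Control libraries. KLK3, which encodes prostate-specific antigen, stood at 8.95 ± 1.22 CPM in SOX2-KO and 2.82 ± 0.130 CPM in Control libraries, and TMPRSS2 at 2.05 ± 0.284 CPM in SOX2-KO and 2.09 ± 0.295 CPM in Control libraries. Among markers of other cells, 2 of 6 fibroblast genes and 1 of 3 endothelial genes had a row: COL1A1 at 1.93 ± 0.233 CPM in SOX2-KO and 4.86 ± 0.0942 CPM in Control libraries, LUM at 1.11 ± 0.253 CPM in SOX2-KO and 2.96 ± 0.518 CPM in Control libraries, and VWF at 20.5 ± 0.629 CPM in SOX2-KO and 3.55 ± 0.562 CPM in Control libraries. The part of other cell types in the nucleotide gene results was not tested. In such bulk samples, fewer cells with a transcript and less of it per cell cannot be told apart.

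Nucleotide synthesis genes were called in both directions in SOX2-KO cells, by small folds. All 36 genes passed the filter on low values. Of these, 15 were called higher and 9 lower, and 12 were not called. The called share has to be read against the whole table, in which 57.8% of genes passed in either direction, made up of 25.0% as higher and 32.9% as lower in SOX2-KO. The 36 genes had a median log2 change of 0.06, against -0.06 over all genes tested, and a median size of change of 0.207 against 0.282 over all genes. The SOX2-KO and Control values did not overlap for 28 of the 36, with 17 higher and 11 lower in SOX2-KO, where 64.5% of all genes did not overlap. Changes ran from -1.01 for RRM2 to 0.64 for GMPR2, and 33 of the 36 lay within 0.5 of 0. Against a minimum fold of 1.5, a call that 6.54% of all genes passed, RRM2 was the single gene left (adjusted p = 0.0136). The heat map of libraries shows the pattern gene by gene: the decline of RRM2 stands out, and enzymes of the same route carry opposite signs.

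**Figure D1:**
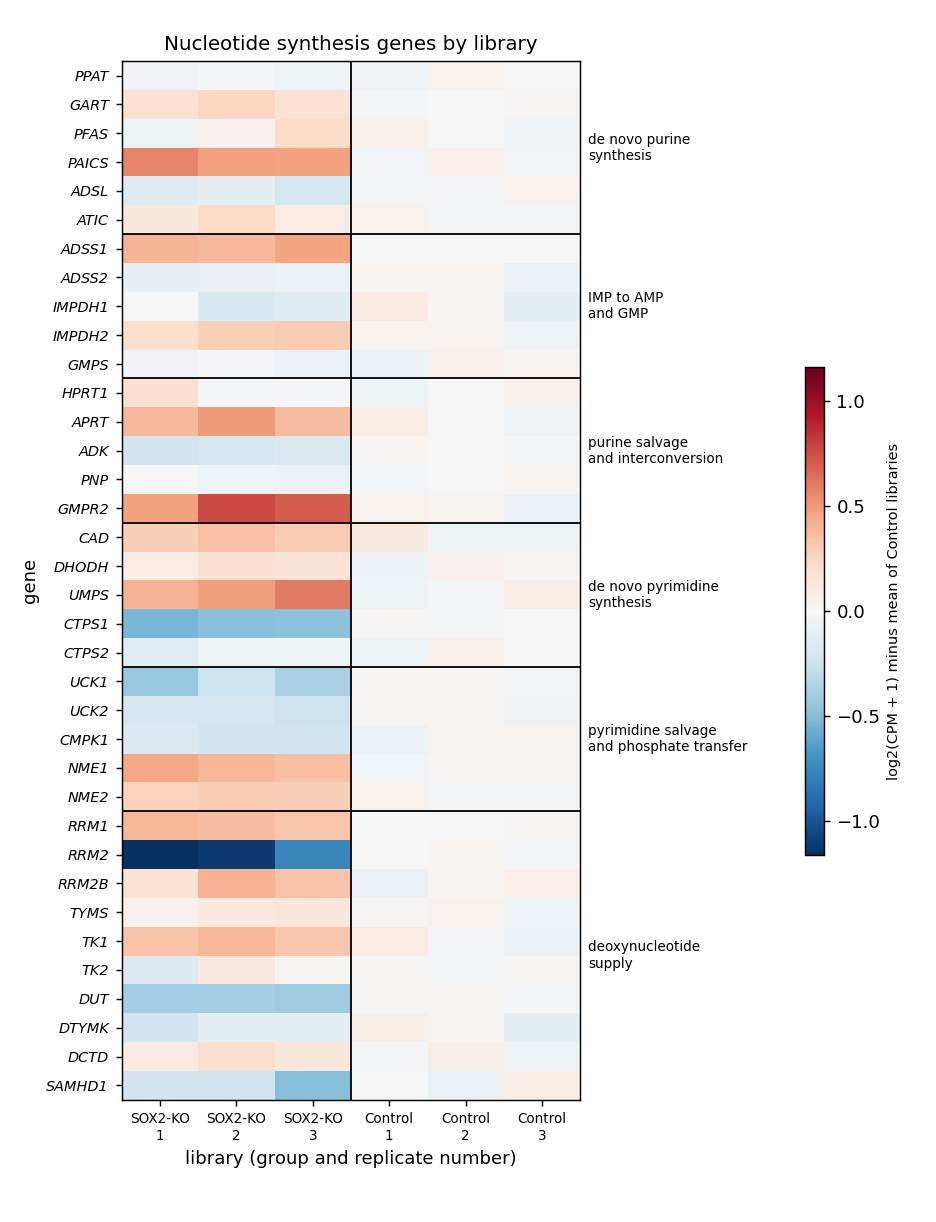
Each cell gives log2(CPM + 1) of a nucleotide synthesis gene in a library minus the mean of that gene over the 3 Control libraries, with genes in rows by role and libraries in columns, SOX2-KO left of Control. RRM2 is the deepest blue in all 3 SOX2-KO libraries, and PAICS, GMPR2 and UMPS are among the reddest.

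In de novo purine synthesis, 3 of 6 genes were called higher, 1 lower and 2 not at all, beside 57.8% of all genes called. The greatest gain of the 6 was that of PAICS, a bifunctional enzyme that carboxylates the imidazole ring and couples aspartate to it. PAICS (chr4:56435741-56464579, GENCODE 29, GRCh38, plus strand) had 709.6, 667 and 661 CPM in the SOX2-KO libraries, against 466, 499 and 469 CPM in the Control libraries. Every SOX2-KO library lay above every Control library, and the mean was 1.42-fold higher in SOX2-KO (log2 change 0.51 ± 0.05, adjusted p = 2.23e-05). PPAT, the amidotransferase that commits PRPP to the pathway, starts next to PAICS on the opposite strand (chr4:56393362-56435615). Its values were 169, 173 and 168 CPM in the SOX2-KO libraries, against 169.5, 179 and 173 CPM in the Control libraries. The groups overlapped and PPAT was not called (log2 change -0.03 ± 0.04, adjusted p = 0.455). It was called lower with the median change of the 27 tested genes within 5 Mb, 0.15, subtracted (-0.18, adjusted p = 0.00301, with a range of 0.00301 to 0.836 over its 14 alternatives without a minimum fold).

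PPAT and PAICS are read away from each other from a shared stretch, which is shown because the neighbours stood on either side of the call. The 136 bases between their RefSeq starts (GRCh38.p14, chr4:56435616-56435751, plus strand, PAICS downstream of the right end) held 75.0% G and C. The stretch is printed whole in lower case with no capitals, since none of the motifs searched was found in it.
PPAT and PAICS: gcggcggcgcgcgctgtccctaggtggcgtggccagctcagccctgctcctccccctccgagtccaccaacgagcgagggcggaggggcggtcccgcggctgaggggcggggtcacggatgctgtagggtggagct
As a ratio within each library, PAICS over PPAT on the log2 scale was 2.06, 1.94 and 1.97 in the SOX2-KO libraries, against 1.45, 1.47 and 1.43 in the Control libraries. The ratios did not overlap, and the SOX2-KO mean was 0.54 above the Control mean. This pair was chosen with its values known, and no test was made.

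Of the other de novo purine genes, GART, a trifunctional enzyme of early ring assembly, had 234, 246 and 233 CPM in the SOX2-KO libraries, against 206, 207 and 209.9 CPM in the Control libraries. All 3 SOX2-KO values were above all 3 Control values, by 1.14-fold in the mean (log2 change 0.19 ± 0.04, adjusted p = 0.00192). ATIC, which closes the ring to give IMP, had 199, 213 and 194 CPM in the SOX2-KO libraries, against 189, 180.4 and 180.0 CPM in the Control libraries. Its groups did not overlap (log2 change 0.14 ± 0.05, adjusted p = 0.0245). The ATIC call ended without SOX2-KO replicate 2, Control replicate 2 or Control replicate 3 (adjusted p = 0.0841, 0.0837 and 0.0813), range 0.00644 to 0.0841. ADSL, the lyase that acts once on the way to IMP and again on the way to AMP, went the other way. It stood at 93.2, 95.8 and 90.4 CPM in the SOX2-KO libraries, against 102, 102 and 107 CPM in the Control libraries, with every SOX2-KO library below every Control library (log2 change -0.15 ± 0.04, adjusted p = 0.0112). With median-ratio scaling of the libraries the ADSL change was -0.10 and was not called (adjusted p = 0.120, range 0.00959 to 0.120). PFAS, the amidotransferase of the fourth step, had 57.4, 61.9 and 69.6 CPM in the SOX2-KO libraries, against 61.8, 59.6 and 58.0 CPM in the Control libraries. Its groups overlapped and it was not called (log2 change 0.07 ± 0.07, adjusted p = 0.416).

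From IMP to AMP and GMP, 2 of 5 genes were called higher, none lower and 3 not at all. In both branches 1 of 2 isozymes was called, beside 57.8% of all genes. ADSS1, the adenylosuccinate synthase best known from muscle, had 54.6, 54.1 and 57.4 CPM in the SOX2-KO libraries, against 41.6, 41.1 and 41.4 CPM in the Control libraries. The groups were apart and each was tight, with a mean 1.34-fold higher in SOX2-KO (log2 change 0.41 ± 0.05, adjusted p = 6.73e-05). ADSS2, the isozyme found in most tissues, had 33.8, 34.1 and 34.6 CPM in the SOX2-KO libraries, against 37.1, 37.1 and 34.6 CPM in the Control libraries. The highest SOX2-KO value lay just under the lowest Control value, and ADSS2 was not called (log2 change -0.08 ± 0.05, adjusted p = 0.198).

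IMPDH2, the inducible IMP dehydrogenase that commits IMP to guanine nucleotides in growing cells, had 185, 195 and 197 CPM in the SOX2-KO libraries, against 165, 164 and 154 CPM in the Control libraries. The SOX2-KO libraries lay above the Control libraries, 1.20-fold in the mean (log2 change 0.26 ± 0.04, adjusted p = 0.000955). IMPDH1, its more constant isozyme, had 45.6, 40.1 and 41.2 CPM in the SOX2-KO libraries, against 48.8, 46.2 and 41.9 CPM in the Control libraries; the groups overlapped (log2 change -0.11 ± 0.07, adjusted p = 0.229). GMPS, which aminates XMP to GMP, had 235, 241 and 232 CPM in the SOX2-KO libraries, against 231, 252 and 246 CPM in the Control libraries. Its groups overlapped and it was not called (log2 change -0.04 ± 0.04, adjusted p = 0.458).

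In purine salvage and interconversion, GMPR2 and APRT were called higher, ADK lower, and HPRT1 and PNP not at all. Of all genes tested, 57.8% were called. GMPR2 (chr14:24232422-24239242, plus strand) encodes GMP reductase, which returns GMP to IMP. It had the greatest gain of the 36 genes, with 47.0, 57.4 and 55.4 CPM in the SOX2-KO libraries, against 34.5, 34.4 and 31.9 CPM in the Control libraries. SOX2-KO replicate 1 was the lowest of its group and still above all Control libraries, and the mean was 1.58-fold higher in SOX2-KO (log2 change 0.64 ± 0.08, adjusted p = 0.000112). APRT, which joins adenine to PRPP, had 111, 121 and 109.7 CPM in the SOX2-KO libraries, against 89.4, 84.9 and 82.1 CPM in the Control libraries. The groups did not overlap, at 1.33-fold higher in SOX2-KO (log2 change 0.41 ± 0.05, adjusted p = 0.000151).

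ADK, adenosine kinase, had 46.2, 47.2 and 47.9 CPM in the SOX2-KO libraries, against 55.1, 54.0 and 53.2 CPM in the Control libraries. Every SOX2-KO library was below every Control library (log2 change -0.20 ± 0.04, adjusted p = 0.00408). HPRT1, which recovers hypoxanthine and guanine and is a common reference gene, had 80.8, 69.8 and 69.9 CPM in the SOX2-KO libraries, against 68.3, 71.3 and 73.3 CPM in the Control libraries. Its SOX2-KO replicate 1 was the highest of the 6 libraries and the other values were intermixed (log2 change 0.05 ± 0.06, adjusted p = 0.545). PNP, which releases the base from inosine and guanosine, had 78.3, 76.0 and 75.0 CPM in the SOX2-KO libraries, against 77.1, 78.9 and 79.9 CPM in the Control libraries. Its groups overlapped and it was not called (log2 change -0.04 ± 0.04, adjusted p = 0.410).

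In de novo pyrimidine synthesis, CAD and UMPS were called higher, CTPS1 lower, and DHODH and CTPS2 not at all. Of all genes tested, 57.8% were called. CAD, the multifunctional protein that catalyses the opening steps, had 162, 169 and 163 CPM in the SOX2-KO libraries, against 143, 128 and 128 CPM in the Control libraries. All SOX2-KO libraries were above all Control libraries, 1.24-fold in the mean (log2 change 0.31 ± 0.05, adjusted p = 0.000747). The 78 tested genes within 5 Mb of CAD had a median log2 change of 0.24. After that median was subtracted, the CAD change was 0.07 and was not called (adjusted p = 0.255, range 0.000244 to 0.255).

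UMPS (chr3:124730366-124749273, plus strand), which finishes UMP, had 61.3, 65.1 and 69.8 CPM in the SOX2-KO libraries, against 44.0, 45.6 and 48.6 CPM in the Control libraries. Its groups were well apart, with the mean 1.42-fold higher in SOX2-KO (log2 change 0.50 ± 0.06, adjusted p = 0.000125). DHODH, the mitochondrial enzyme between CAD and UMPS, had 29.1, 31.1 and 30.7 CPM in the SOX2-KO libraries, against 25.9, 28.3 and 27.7 CPM in the Control libraries. The SOX2-KO values were all higher by a narrow margin, short of the call (log2 change 0.14 ± 0.06, adjusted p = 0.0624). DHODH was called with median-ratio scaling, quantile normalisation, the neighbourhood subtracted, or SOX2-KO replicate 1 left out (adjusted p = 0.0174, 0.00972, 0.0303 and 0.0484, range 0.00972 to 0.171).

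CTPS1 (chr1:40979335-41012565, plus strand) encodes the CTP synthase that proliferating lymphocytes depend on. It had 87.0, 90.4 and 90.5 CPM in the SOX2-KO libraries, against 128, 125 and 127 CPM in the Control libraries. The SOX2-KO libraries were all below the Control libraries, with the Control mean 1.42-fold the SOX2-KO mean (log2 change -0.50 ± 0.04, adjusted p = 7.66e-06). CTPS2, the second CTP synthase, had 31.8, 33.2 and 33.4 CPM in the SOX2-KO libraries, against 33.4, 35.9 and 34.8 CPM in the Control libraries. Its groups overlapped and it was not called (log2 change -0.08 ± 0.05, adjusted p = 0.236). It was called lower with the median of its neighbourhood subtracted (-0.18, adjusted p = 0.0220, range 0.0220 to 0.959).

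**Figure D2:**
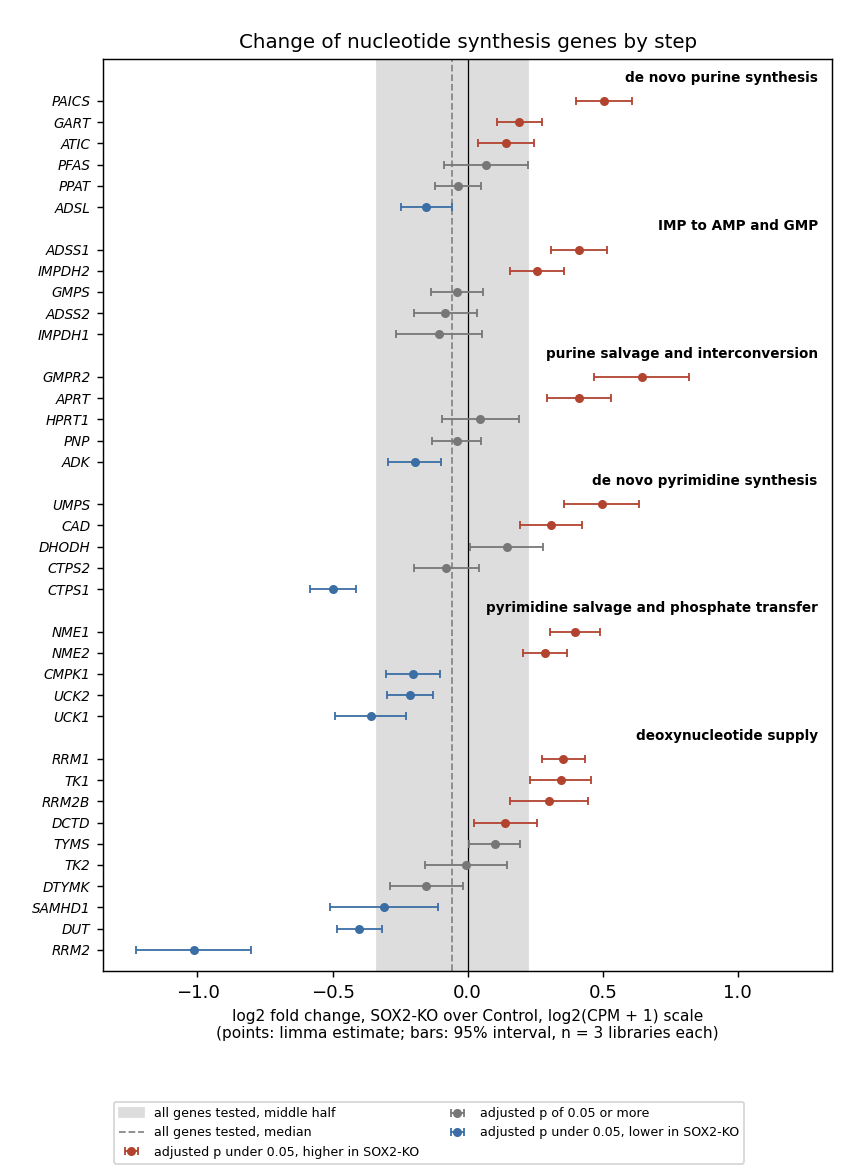
Points give the log2 change in SOX2-KO relative to Control on the log2(CPM + 1) scale for each of the 36 nucleotide synthesis genes, grouped by role, with bars for the 95% confidence interval from limma and a grey band from the lower to the upper quartile of all genes tested. RRM2 lies near -1.01 and all other genes lie between -0.50 and 0.64.

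Of the pyrimidine salvage and phosphate transfer genes, the 3 nucleoside and monophosphate kinases were called lower and the 2 diphosphate kinases higher. Over all genes tested, 32.9% were called lower and 25.0% higher. UCK1 and UCK2 phosphorylate uridine and cytidine. UCK1 had 35.0, 40.1 and 36.6 CPM in the SOX2-KO libraries, against 48.7, 48.4 and 46.9 CPM in the Control libraries, and UCK2 had 142, 142 and 138 CPM in the SOX2-KO libraries, against 166, 165 and 158 CPM in the Control libraries. Neither showed any overlap between groups, and the log2 change was -0.36 ± 0.06, adjusted p = 0.000710 for UCK1, and -0.21 ± 0.04, adjusted p = 0.00111 for UCK2. CMPK1, which phosphorylates UMP and CMP, had 83.6, 81.4 and 80.5 CPM in the SOX2-KO libraries, against 90.0, 96.7 and 96.3 CPM in the Control libraries. It too was lower in every SOX2-KO library (log2 change -0.20 ± 0.04, adjusted p = 0.00352). With the median of their neighbourhoods subtracted, neither UCK2 (-0.07, adjusted p = 0.142, range 0.000876 to 0.142) nor CMPK1 (-0.11, adjusted p = 0.0554, range 0.00239 to 0.0554) was called.

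NME1 and NME2 encode the subunits of nucleoside diphosphate kinase, which makes triphosphates from diphosphates. NME1 had 140.2, 134 and 130.4 CPM in the SOX2-KO libraries, against 99.8, 103 and 103 CPM in the Control libraries, and NME2 had 298, 305 and 303 CPM in the SOX2-KO libraries, against 254, 245 and 243 CPM in the Control libraries. In both, all SOX2-KO libraries were above all Control libraries, with log2 changes of 0.40 ± 0.04, adjusted p = 4.83e-05 for NME1 and 0.29 ± 0.04, adjusted p = 0.000147 for NME2. The neighbours are also joined in a read-through gene, NME1-NME2, which shares 18.6% of NME1 and 22.9% of NME2 exonic bases in GENCODE 29 and was itself called higher (25.3 ± 4.41 CPM in SOX2-KO and 13.7 ± 2.32 CPM in Control libraries, adjusted p = 0.000800). The division of reads among the 3 genes is therefore uncertain.

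Deoxynucleotide supply held the greatest decline of all. Of its 10 genes, 4 were called higher, 3 lower and 3 not at all, beside 57.8% of all genes called. Ribonucleotide reductase pairs a large catalytic subunit, RRM1, with a radical-bearing small subunit, which is RRM2 in S phase or the damage-inducible RRM2B in resting cells. RRM2 (chr2:10120698-10131419, plus strand) had 84.3, 87.1 and 112 CPM in the SOX2-KO libraries, against 190.1, 193 and 187 CPM in the Control libraries. SOX2-KO replicate 3 was the highest of its group and still far below the lowest Control library. The Control mean was 2.01-fold the SOX2-KO mean (log2 change -1.01 ± 0.09, adjusted p = 2.35e-05, 95% interval -1.23 to -0.80). The 34 tested genes within 5 Mb of RRM2 had a median log2 change of 0.32. In GENCODE 29, other same-strand genes share 20.2% of RRM2 and 18.9% of ADSL exonic bases, and they had no row among those analysed here. Opposite-strand genes share 14.7% of TK2, 14.5% of DUT, 11.9% of PNP and 10.3% of SAMHD1 exonic bases.

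The partner subunits were both called higher. RRM1 had 338, 333 and 323 CPM in the SOX2-KO libraries, against 257, 258 and 261 CPM in the Control libraries. The groups were tight and apart, at 1.28-fold in the mean (log2 change 0.35 ± 0.04, adjusted p = 3.76e-05). RRM2B had 136, 160.2 and 153 CPM in the SOX2-KO libraries, against 115, 122 and 126 CPM in the Control libraries. All SOX2-KO libraries were above all Control libraries (log2 change 0.30 ± 0.06, adjusted p = 0.00302). With the neighbourhood median of 0.14 subtracted, RRM2B stood at 0.16 and was not called (adjusted p = 0.0546, range 0.000378 to 0.0546).

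The start regions of the RRM1 and RRM2 subunit genes are shown because their products form 1 enzyme and their mRNAs changed in opposite directions. Each line gives the 250 bases before a RefSeq start (GRCh38.p14, plus strand), with RRM1 at chr11:4094435-4094684 and RRM2 at chr2:10122489-10122738. Capitals mark CCAAT on either strand, chosen as a motif after these sequences were seen. For RRM2 the more downstream of 2 listed starts was used.
RRM1: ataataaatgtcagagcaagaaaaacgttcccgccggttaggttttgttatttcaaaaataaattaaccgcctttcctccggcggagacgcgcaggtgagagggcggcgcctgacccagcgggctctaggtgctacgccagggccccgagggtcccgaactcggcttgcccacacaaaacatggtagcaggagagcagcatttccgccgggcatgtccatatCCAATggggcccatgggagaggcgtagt
RRM2: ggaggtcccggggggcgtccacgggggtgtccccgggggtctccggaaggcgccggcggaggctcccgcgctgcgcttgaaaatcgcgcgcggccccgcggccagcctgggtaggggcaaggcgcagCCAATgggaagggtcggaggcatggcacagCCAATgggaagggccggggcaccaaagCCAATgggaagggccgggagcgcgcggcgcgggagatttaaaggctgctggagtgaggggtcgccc
RRM1 held 1 CCAAT and RRM2 held 3, and 33.1% of 16080 windows of tested genes held at least 1. These matches describe the letters and are not evidence of a bound factor.

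TYMS, which methylates dUMP to dTMP, had 153, 160.4 and 162 CPM in the SOX2-KO libraries, against 149, 152 and 143 CPM in the Control libraries. The SOX2-KO values were all higher by a narrow margin and TYMS was not called (log2 change 0.10 ± 0.04, adjusted p = 0.0670). It was called with median-ratio scaling, quantile normalisation or without SOX2-KO replicate 1 (adjusted p = 0.00978, 0.0267 and 0.0358, range 0.00978 to 0.605). ENOSF1, on the opposite strand, shares 39.1% of TYMS exonic bases, and whether counting used strand was not given in the sources used here. ENOSF1 averaged 120.2 ± 23.3 CPM in SOX2-KO and 114 ± 2.41 CPM in Control libraries and was not called.

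TK1, the S-phase thymidine kinase of the cytosol, had 94.6, 98.1 and 93.2 CPM in the SOX2-KO libraries, against 79.5, 74.0 and 71.2 CPM in the Control libraries. Its groups did not overlap, at 1.27-fold higher in SOX2-KO (log2 change 0.34 ± 0.05, adjusted p = 0.000340). TK2, the mitochondrial thymidine kinase, had 49.4, 59.6 and 56.2 CPM in the SOX2-KO libraries, against 55.7, 54.2 and 55.7 CPM in the Control libraries. Its groups overlapped, with SOX2-KO replicate 1 the lowest and SOX2-KO replicate 2 the highest library (log2 change -0.01 ± 0.07, adjusted p = 0.945). DTYMK, which phosphorylates dTMP, had 44.5, 48.1 and 48.1 CPM in the SOX2-KO libraries, against 54.7, 53.5 and 48.6 CPM in the Control libraries. SOX2-KO values were all lower, and DTYMK was just short of the call (log2 change -0.15 ± 0.06, adjusted p = 0.0513). It was called at a mean of at least 5 CPM, with its neighbourhood subtracted, or without Control replicate 3 (adjusted p = 0.0453, 0.0269 and 0.0216, range 0.0216 to 0.247).

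DUT (chr15:48331011-48343373, plus strand) encodes the dUTPase that keeps uracil out of DNA and provides dUMP. It had 84.2, 84.0 and 83.1 CPM in the SOX2-KO libraries, against 112, 112 and 109 CPM in the Control libraries. Each group was tight and the SOX2-KO libraries were all lower, with the Control mean 1.32-fold the SOX2-KO mean (log2 change -0.40 ± 0.04, adjusted p = 2.18e-05). The 66 tested genes within 5 Mb had a median log2 change of -0.34, close to that of DUT. After subtraction the DUT change was -0.06 and was not called (adjusted p = 0.216, range 1.49e-05 to 0.216).

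DCTD, the deaminase that makes dUMP from dCMP, had 54.4, 58.4 and 55.6 CPM in the SOX2-KO libraries, against 50.4, 53.3 and 48.9 CPM in the Control libraries. Every SOX2-KO library was above every Control library (log2 change 0.14 ± 0.05, adjusted p = 0.0439). The DCTD call ended with the neighbourhood subtracted, where the change was -0.07 (adjusted p = 0.282), and without SOX2-KO replicate 2, SOX2-KO replicate 3, Control replicate 1 or Control replicate 3 (adjusted p = 0.144, 0.0739, 0.0940 and 0.148, range 0.00602 to 0.282). It also ended with a replicate block in the limma fit (adjusted p = 0.05003). SAMHD1, which hydrolyses deoxynucleoside triphosphates and so limits the pool, had 23.6, 23.5 and 19.2 CPM in the SOX2-KO libraries, against 27.6, 26.0 and 29.0 CPM in the Control libraries. SOX2-KO replicate 3 was the lowest library and the groups did not overlap (log2 change -0.31 ± 0.09, adjusted p = 0.0147). The SAMHD1 call ended with quantile normalisation, with the neighbourhood median of -0.22 subtracted, and without Control replicate 3 (adjusted p = 0.0555, 0.402 and 0.0561, range 0.0115 to 0.402).

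**Figure D3:**
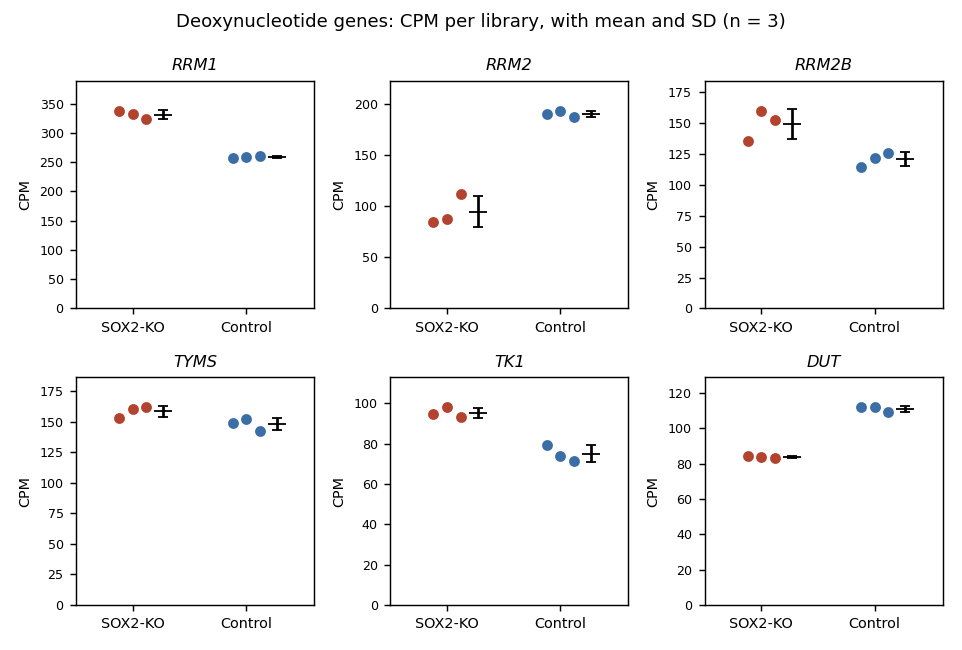
Points give the CPM of RRM1, RRM2, RRM2B, TYMS, TK1 and DUT in each of the 3 SOX2-KO and 3 Control libraries. Axes are linear, with SOX2-KO left of Control and a mark at each group mean with its SD. TK2, DTYMK, DCTD and SAMHD1 are not drawn. RRM2 averages 94.5 CPM in SOX2-KO and 190.3 CPM in Control libraries, while RRM1, RRM2B and TK1 lie higher in SOX2-KO.

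Paralogs and partner subunits were set against each other within each library, which cancels any scaling shared by a library. In all 7 pairs of paralogs the SOX2-KO and Control ratios did not overlap. Among single genes, 64.5% of all tested had groups that did not overlap. That share is of CPM values and not of ratios, and no share over ratios of other gene pairs was computed. The exact two-sided permutation p of each of the 7 was 0.1, the smallest that 3 against 3 libraries allows, and 0.1 after Benjamini-Hochberg adjustment. These 7 pairs were themselves chosen with earlier results of these data known. The other 2 pairs, PAICS over PPAT and RRM2 over RRM1, were added with their own values known and are given without a test. On the log2 scale of CPM + 1, RRM2 over RRM2B was -0.68, -0.87 and -0.44 in the SOX2-KO libraries, against 0.72, 0.67 and 0.57 in the Control libraries. RRM2 was thus below RRM2B in CPM in all 3 SOX2-KO libraries and above it in all 3 Control libraries, and the difference of the means was -1.32. RRM2 over RRM1 was -1.81 ± 0.25 in SOX2-KO and -0.44 ± 0.03 in Control libraries, a difference of -1.37. CPM is not corrected for gene length, so a ratio says how the balance shifted and not which transcript was more numerous.

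The other pairs shifted by less. ADSS2 over ADSS1 was -0.68 ± 0.03 in SOX2-KO and -0.19 ± 0.06 in Control libraries, a difference of -0.49. CTPS1 over CTPS2 was 1.42 ± 0.01 in SOX2-KO and 1.84 ± 0.07 in Control libraries, a difference of -0.42. The balance therefore moved toward ADSS1 and away from CTPS1. IMPDH2 over IMPDH1 differed by 0.36 and TK1 over TK2 by 0.35. UCK2 over UCK1 differed by 0.15 and NME1 over NME2 by 0.11.

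**Figure D4:**
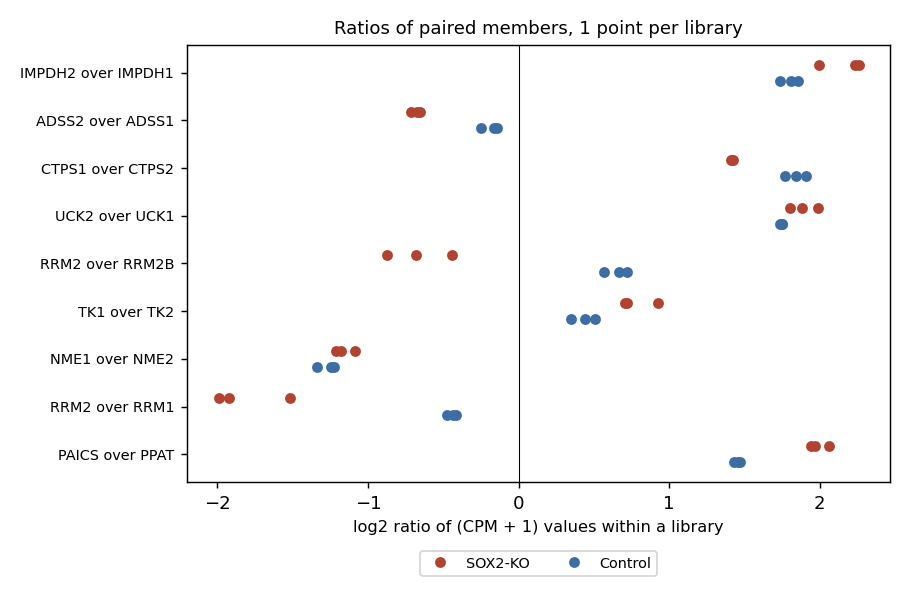
Each point is the log2 ratio of CPM + 1 of a pair of nucleotide synthesis genes in a library, with 3 SOX2-KO and 3 Control libraries per pair. The RRM2 over RRM2B ratio lies below 0 in every SOX2-KO library and above 0 in every Control library.

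Promoter motifs were counted as a description. RefSeq windows of 250 bases before the start were at hand for 33 of the genes, 51 windows in all, and both strands were searched. The E-box CACGTG, bound by MYC and MAX among others, was in 3 of 51 windows (5.88%), those of ATIC, DHODH and PPAT, against 8.22% of 16080 windows of tested genes. The E2F sites TTTCCCGC or TTTGGCGC were in 3 windows (5.88%), those of DUT, GART and TYMS, against 2.83%. Neither the SOX motif CATTGTT nor the NRF1 motif was in any member window, and they were in 1.68% and 1.63% of all windows. CCAAT was in 17 windows (33.3%), against 33.1%.

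S-phase and proliferation genes were measured beside the deoxynucleotide genes. Of 24 tested, 10 were called higher, 7 lower and 7 not at all, where 57.8% of all genes were called, 25.0% as higher and 32.9% as lower. The 24 genes had a median log2 change of 0.08. CCNA2, a cyclin of S and G2 phase, stood at 161 ± 3.08 CPM in SOX2-KO and 101 ± 2.02 CPM in Control libraries, and MCM5, of the replicative helicase, at 178 ± 3.44 CPM in SOX2-KO and 111 ± 3.01 CPM in Control libraries, both called higher (adjusted p = 1.51e-06 and 1.80e-06). RFC4, of the clamp loader, stood at 47.5 ± 2.53 CPM in SOX2-KO and 108 ± 1.27 CPM in Control libraries, and GINS1, of the helicase complex, at 56.6 ± 3.78 CPM in SOX2-KO and 98.4 ± 4.36 CPM in Control libraries, both called lower (adjusted p = 3.05e-07 and 6.77e-06). Their log2 changes were -1.17 and -0.79, and the tested genes within 5 Mb had medians of -0.42 and -0.25. Around CCNA2 and MCM5 the medians were 0.13 and -0.07, for changes of 0.67 and 0.67. MKI67, the Ki-67 antigen, stood at 530.2, 439 and 411 CPM in the SOX2-KO libraries, against 458, 452 and 457 CPM in the Control libraries. SOX2-KO replicate 1 was the highest and the groups overlapped (adjusted p = 0.962). PCNA averaged 216 ± 3.91 CPM in SOX2-KO and 218 ± 4.61 CPM in Control libraries and was not called. The part of cell cycle composition in the RRM2 difference was not tested.

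Genes of substrate supply were counted beside the same shares of all genes, 25.0% called higher and 32.9% lower, with no test of either list. Of the 4 PRPP synthesis genes, 2 were called higher and none lower: PRPS1, a PRPP synthetase, at 114 ± 3.93 CPM in SOX2-KO and 91.8 ± 3.46 CPM in Control libraries, and PRPSAP2, an associated regulatory protein, at 54.1 ± 2.44 CPM in SOX2-KO and 46.5 ± 1.43 CPM in Control libraries (adjusted p = 0.000328 and 0.00619). The PRPS1 log2 change was 0.31, and the 42 tested genes within 5 Mb of it had the same median, 0.31. For PRPSAP2 the change was 0.21 and the median of its neighbourhood -0.01. PRPS2 and PRPSAP1 were not called (adjusted p = 0.223 and 0.482). Folate enzymes prepare some of the carbons that enter the purine ring and thymidylate. Of the 13 folate genes tested, 8 were called higher and 4 lower, with a median log2 change of 0.23. MTHFD1, the cytosolic trifunctional folate enzyme, averaged 189 ± 8.90 CPM in SOX2-KO and 133 ± 5.07 CPM in Control libraries (log2 change 0.50 ± 0.05, adjusted p = 2.76e-05). GGH, which trims folate polyglutamates, averaged 100.2 ± 1.29 CPM in SOX2-KO and 69.7 ± 1.59 CPM in Control libraries (log2 change 0.52 ± 0.04, adjusted p = 7.85e-06). ALDH1L2, which oxidises formyl folate in mitochondria, averaged 338 ± 13.9 CPM in SOX2-KO and 478 ± 5.54 CPM in Control libraries (log2 change -0.50 ± 0.04, adjusted p = 1.25e-05). MTHFS, which recycles 5-formyl folate, averaged 3.20 ± 0.301 CPM in SOX2-KO and 6.36 ± 0.759 CPM in Control libraries (log2 change -0.81 ± 0.12, adjusted p = 0.000419).

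Of 29 breakdown genes listed, 20 were tested, and 2 were called higher, 10 lower and 8 not at all, against 57.8% of all genes called, 25.0% as higher and 32.9% as lower. The 20 genes had a median log2 change of -0.17, against -0.06 over all genes, and the list itself was not tested. UPP1, uridine phosphorylase, had 2.39, 3.15 and 3.64 CPM in the SOX2-KO libraries, against 5.94, 6.33 and 6.46 CPM in the Control libraries. These are low levels with no overlap, lower in SOX2-KO (log2 change -0.85 ± 0.14, adjusted p = 0.000629). ITPA, which clears inosine triphosphate, averaged 29.8 ± 1.86 CPM in SOX2-KO and 41.4 ± 1.47 CPM in Control libraries (log2 change -0.46 ± 0.06, adjusted p = 0.000199). The 5'-nucleotidases NT5C3A and NT5C3B were the 2 called higher, at log2 changes of 0.38 ± 0.07, adjusted p = 0.00222 for NT5C3A and 0.27 ± 0.04, adjusted p = 0.000770 for NT5C3B. NT5C, a deoxynucleotidase, and DCTPP1, which hydrolyses dCTP, were not called (adjusted p = 0.667 and 0.0949).

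**Figure D5:**
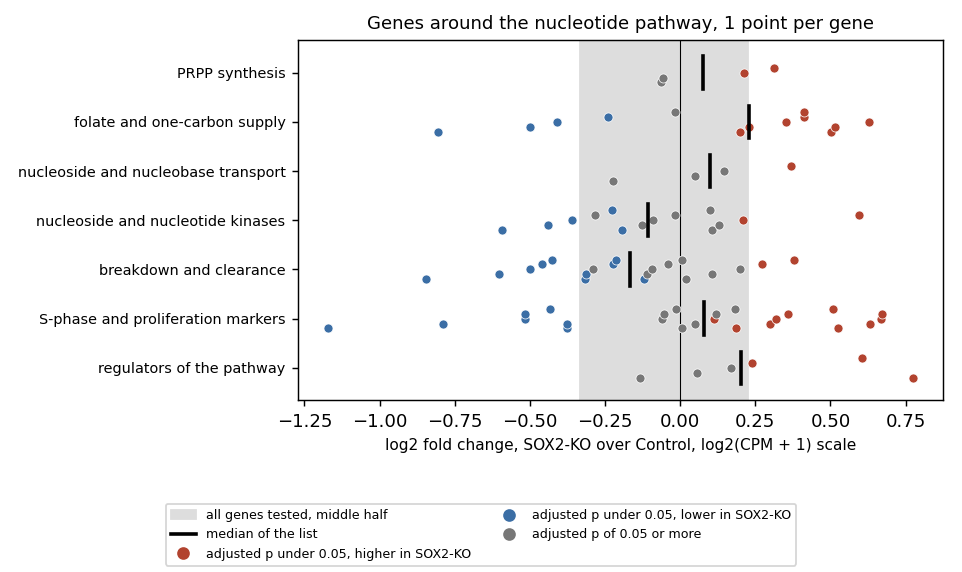
Points give the log2 change in SOX2-KO relative to Control for every tested gene of the pathway lists beside the 36 nucleotide synthesis genes, with a bar at the median of each list, a line at 0 and a grey band from the lower to the upper quartile of all genes tested. Folate and one-carbon genes have a median of 0.23 and breakdown genes a median of -0.17, with both signs present in each.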

How the data were processed

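RNA was sequenced from 3 SOX2-KO and 3 Control libraries of CWR-R1 cells. The authors deposited 1 table of CPM values per Ensembl gene, each column summing to 1000000. Per the submitters' processing notes, kallisto 0.43.1, edgeR 3.22.2, Trimmomatic 0.38, CASAVA 1.8, STAR, Picard, FastQC and SAMtools were used with GRCh38.p12 and hg38, in roles not given there. Strandedness and the rule that kept genes in the table were not given in the sources used here.

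Whole reads could not be recovered from the CPM steps (26.6 to 28.4% of values came within 0.001 of a whole read), so no count model was used. Genes averaging 1 CPM or more were tested with limma 3.58.1 in R 4.3.3 on log2(CPM + 1), which understates changes of low genes, with a trended prior, group as the only term and Benjamini-Hochberg adjustment over 15927 genes. The code was tested on simulated data. Symbols came from an Ensembl ID table and coordinates from GENCODE 29, matched by ID for 16010 of 16949 genes. Replicates differed by more than counting noise. The members, lists and tests were chosen with earlier results of these data known. All members are named; from other lists, up to 2 genes with the smallest p called higher, 2 called lower and 2 of highest mean not called are named, and some of these are not reported here. Alternatives were other pseudocounts, filters and scalings, a minimum fold of 1.5, subtracting the median change of genes within 5 Mb, a replicate block, and leaving out each library.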

Additional observations from a re-analysis of the deposited data

How the results depend on the processing

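Of the 24 calls among the 36 genes, 15 stood under all 14 alternatives that set no minimum fold, and 9 ended under at least 1 of them. Against a minimum fold of 1.5, 0 members were called higher and 1 lower, and of the genes on the other lists 0 were called higher and 1, RFC4, lower, where the main test called 28 higher and 26 lower. Leaving out each library in turn gave 13 to 17 members higher and 9 lower. The log2 change turned its sign, with no call in the new direction, with median-ratio scaling PPAT 0.0230, GMPS 0.0183, PNP 0.0166 and TK2 0.0508; with quantile normalisation PPAT 0.00951, PNP 0.00356 and TK2 0.0545; with the neighbourhood median subtracted PFAS -0.0366, ADSS2 0.0422, HPRT1 -0.166, TYMS -0.0274, TK2 0.0206 and DCTD -0.0710. Over the fits that each left out a library, PFAS ran from -0.00416 to 0.132, HPRT1 from -0.0216 to 0.0825 and TK2 from -0.0643 to 0.0680. The ratio of every pair kept its direction under the alternatives run. Same-numbered libraries did not deviate together (correlations of -0.04, 0.04 and -0.01), so the numbers were not taken as pairs; with a replicate block 14 members were called higher and 9 lower, DCTD being the call that ended. With 3 libraries a group and 3 reads worth 0.117 to 0.145 CPM, depth limits the low genes on the other lists more than the members.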

Other observations

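Kinases outside the 36 genes were called in both directions. Of 15 nucleoside and nucleotide kinases listed, 14 were tested, 2 called higher, 5 lower and 7 not at all, beside 57.8% of all genes called, with a median log2 change of -0.11. AK3, the mitochondrial adenylate kinase that uses GTP, averaged 50.1 ± 3.08 CPM in SOX2-KO and 32.8 ± 2.27 CPM in Control libraries (limma log2 change 0.60 ± 0.07, adjusted p = 7.51e-05). DGUOK, the mitochondrial deoxyguanosine kinase, averaged 46.4 ± 2.95 CPM in SOX2-KO and 40.0 ± 2.04 CPM in Control libraries (log2 change 0.21 ± 0.06, adjusted p = 0.0179). AK1, a cytosolic adenylate kinase, was called lower, at 19.2 ± 1.87 CPM in SOX2-KO and 26.4 ± 2.05 CPM in Control libraries (log2 change -0.44 ± 0.09, adjusted p = 0.00228). AK4 and DCK, deoxycytidine kinase, were not called (adjusted p = 0.214 and 0.172).

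Of 8 transporters listed, 4 were tested and 1 was called, beside 57.8% of all genes. SLC29A2, an equilibrative nucleoside carrier, was the 1 called, at 49.0 ± 1.67 CPM in SOX2-KO and 37.8 ± 3.19 CPM in Control libraries (log2 change 0.37 ± 0.07, adjusted p = 0.00117). SLC29A1 and SLC29A4 were not called (adjusted p = 0.435 and 0.102). Among the 6 genes listed as regulators of nucleotide genes, 3 were called higher and none lower, a called share near the 57.8% of all genes. This count leaves out E2F1 and E2F2, which were counted with the S-phase genes and named after their values were seen. Both were called lower, with log2 changes of -0.43 ± 0.06, adjusted p = 0.000217 for E2F1 and -0.52 ± 0.05, adjusted p = 1.96e-05 for E2F2. ATF4, a stress-response factor that induces folate enzymes, averaged 738 ± 24.3 CPM in SOX2-KO and 485 ± 18.8 CPM in Control libraries (log2 change 0.61 ± 0.04, adjusted p = 7.36e-06). CDKN1A, the cyclin-dependent kinase inhibitor p21, had 63.4, 104 and 88.3 CPM in the SOX2-KO libraries, against 48.7, 46.6 and 49.7 CPM in the Control libraries. Its SOX2-KO values were spread widely and all above the Control values (log2 change 0.78 ± 0.15, adjusted p = 0.00161). RB1 was not called (adjusted p = 0.101). The third regulator called higher, MYC, which binds E-boxes of many nucleotide genes, averaged 387 ± 3.83 CPM in SOX2-KO and 328 ± 17.7 CPM in Control libraries (log2 change 0.24 ± 0.05, adjusted p = 0.00182), and was named after its values were seen.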
